A study of Mus musculus with 94 samples.

Results

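The 10 genes described here encode the enzymes that make and remove prostaglandins: cytosolic phospholipase A2 (Pla2g4a), the cyclooxygenases COX1 and COX2 (Ptgs1 and Ptgs2), the prostaglandin E synthases (Ptges, Ptges2 and Ptges3), the prostacyclin synthase (Ptgis), the prostaglandin D synthases (Ptgds and Hpgds) and the degrading enzyme 15-hydroxyprostaglandin dehydrogenase (Hpgd). They were chosen by symbol for their role in the pathway, and all 10 were found among the 49080 genes of the table. Phospholipase A2 frees arachidonic acid from membranes, a cyclooxygenase turns it into prostaglandin H2, and terminal synthases make from this PGE2, PGD2, prostacyclin or other prostanoids. COX1 is present in many resting cells, while COX2 is induced by cytokines and growth factors and is found in many tumors, where PGE2 is known for dampening T cell responses. Indomethacin blocks the activity of both cyclooxygenase proteins, so transcript levels say nothing of how much prostaglandin was made.

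Total RNA was sequenced from 94 tumors of 4T1, a mouse mammary carcinoma cell line, grown in the right hind limb of female BALB/c mice implanted at 8 weeks of age. Control untreated tumors numbered 20, and 25 tumors received a single dose of 6 Gy, 25 received indomethacin (INDO) at 30 mg/L in the drinking water throughout the experiment, and 24 received 6 Gy + INDO. Tumors were taken 1, 3, 7, 15 and 23 days after irradiation (IR), with 5 treated tumors per group and day, apart from 4 given 6 Gy + INDO on day 3, and with 4, 5, 5, 3 and 3 control untreated tumors. All groups carry the same implanted line in a whole host, so a value is that of tumor cells and host cells together. In such bulk samples, fewer cells of a type and less RNA per cell cannot be told apart.

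The libraries held 21.0 to 109.3 M (mega) counts, and the median was 37.5 M for 6 Gy + INDO, 41.05 M for INDO, 66.64 M for 6 Gy and 73.44 M for controls. In 11 tumors, olfactory and vomeronasal receptor genes took 326.1 to 1593 CPM (counts scaled to a fixed library size), against 40.65 to 145.1 CPM in all others, and 8 of these 11 were given 6 Gy + INDO. On day 3 they were replicates 1, 2 and 4 of the 4 tumors given 6 Gy + INDO, and calls that were lost without the 11 tumors are given with that value. The epithelial genes of the 4T1 line were present in every tumor, with Epcam at 185 to 757 CPM and Krt8 at 434 to 1310 CPM. Levels below are CPM with TMM library sizes unless they are given per kb of exon. A gene was called when its edgeR quasi-likelihood test had a Benjamini-Hochberg adjusted p under 0.05, and the words rose and fell are kept for such genes.

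The genes lie, on GRCm38, at chr1:149829618-149961290 on the minus strand (Pla2g4a), chr2:36230426-36252272 plus (Ptgs1), chr1:150100031-150108227 plus (Ptgs2), chr2:30889471-30929863 minus (Ptges), chr2:32395896-32405772 plus (Ptges2) and chr10:128058954-128077272 plus (Ptges3). The remaining 4 lie at chr2:167191805-167240604 minus (Ptgis), chr2:25466709-25470046 minus (Ptgds), chr6:65117293-65144908 minus (Hpgds) and chr8:56294585-56321043 plus (Hpgd). The promoters of Ptgs2 and Hpgd are shown because these genes, which stand at the start and the end of the life of a prostaglandin, carry the clearest differences between treatments. Of the 10 genes, 9 were matched to a RefSeq promoter of GRCm38.p6, and Ptgis was not. Each window runs from 250 bases before the RefSeq start to 50 bases after it, 5′ to 3′ on the gene's own plus strand, at chr1:150099781-150100080 for Ptgs2 and chr8:56294302-56294601 for Hpgd. Capitals mark matches, on either strand, to any of 8 motifs.
Ptgs2: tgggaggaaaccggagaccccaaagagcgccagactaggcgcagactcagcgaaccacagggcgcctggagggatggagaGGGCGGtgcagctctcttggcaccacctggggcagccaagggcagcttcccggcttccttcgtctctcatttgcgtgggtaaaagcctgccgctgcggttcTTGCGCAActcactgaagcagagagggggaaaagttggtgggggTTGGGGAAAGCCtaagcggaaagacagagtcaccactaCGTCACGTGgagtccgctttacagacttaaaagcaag
Hpgd: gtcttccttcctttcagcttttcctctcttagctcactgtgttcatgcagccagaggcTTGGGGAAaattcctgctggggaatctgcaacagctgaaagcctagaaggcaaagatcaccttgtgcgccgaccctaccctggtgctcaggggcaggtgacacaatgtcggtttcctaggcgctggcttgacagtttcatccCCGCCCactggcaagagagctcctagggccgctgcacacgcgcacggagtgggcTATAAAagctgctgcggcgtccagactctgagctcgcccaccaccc

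The Ptgs2 window held 2 matches to the C/EBP motif TTNNGNAA, which occurs in 40.7% of the 32851 promoters of the reference. The match nearer to the start overlaps a match to the NF-kB motif, found in 50.8% of promoters. The core of the cAMP response element (CGTCA, 20.8% of promoters) overlaps an E-box (CACGTG, 7.15%). These lie after the RefSeq start, at bases 14 to 18 and 17 to 22 counted from it. A GC box (GGGCGG, 35.7%) lies before the start, at -170 to -165. The Hpgd window held 1 match each to the C/EBP motif, the GC box and the TATA box (TATAAA, 13.6% of promoters). That TATAAA match lies after the RefSeq start, at bases 5 to 10. The remaining motifs searched, the full cAMP response element (TGACGTCA, 1.79%) and AP-1 (TGANTCA, 7.81%), had no match in either window. These are matches of letters, and binding at them was not measured.

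Per kb of exon and over all 94 tumors, Ptges3 was the most abundant of the 10 genes (93.7 ± 19.01 CPM per kb, SD, n = 94), followed by Ptgs2 (33.8 ± 21.3), Ptgs1 (12.0 ± 2.89), Pla2g4a (11.2 ± 2.60) and Ptges (9.30 ± 2.60). Hpgds (2.48 ± 0.636) and Ptges2 (1.61 ± 0.334) came next, and Hpgd (0.572 ± 0.788), Ptgis (0.437 ± 0.351) and Ptgds (0.0792 ± 0.0591) were rare. Of the neighbouring pairs in this order, 3 differed by less than the SD of either gene, namely Ptgs1 and Pla2g4a, Pla2g4a and Ptges, and Hpgd and Ptgis. Ptgds had 0 to 25 counts per tumor, and no statement about its level is firmer than such counts allow. Ptges3 has a look-alike, Ptges3-ps, and Ptges and Hpgd overlap other genes on the same strand (Gm13400 and Gm45540). Antisense genes overlap Ptgs1, Ptgis, Hpgds and Pla2g4a, and whether counting used the strand is not stated by the sources at hand, so the counts of these genes are uncertain to that extent.

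**Figure D1:**
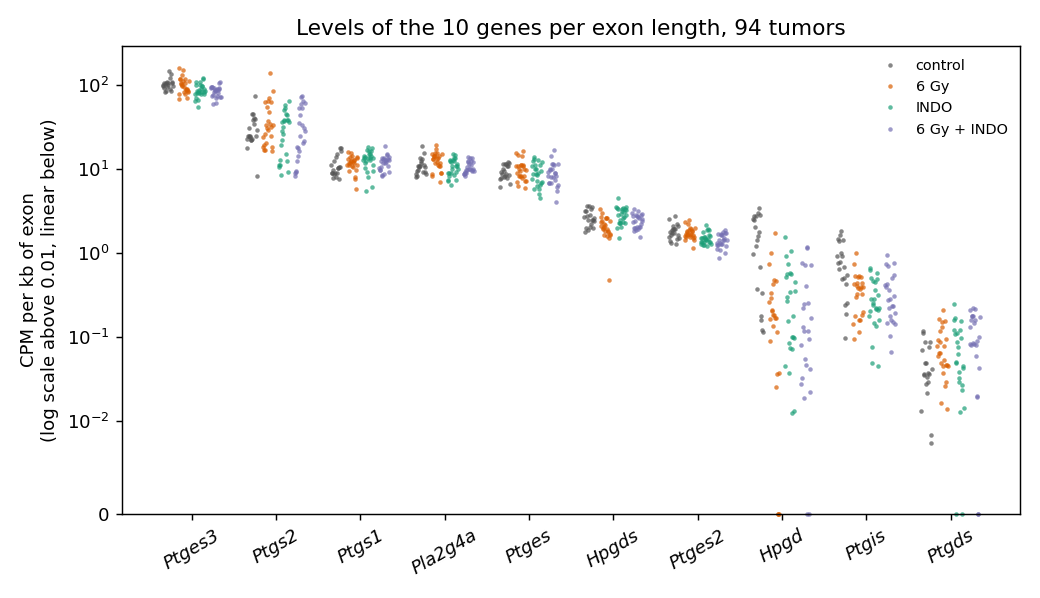
CPM per kb of exon of the 10 genes (vertical axis, logarithmic above 0.01 and linear below) in 94 tumors, each point 1 tumor, colored by treatment. Ptges3 (mean 93.7) and Ptgs2 (33.8) were the highest, and Hpgd, Ptgis and Ptgds the lowest with the widest relative spread.

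Pla2g4a, which releases the arachidonic acid that both cyclooxygenases use, was higher after 6 Gy on day 1 and as a mean over days. On day 1 its level was 55.5, 51.1, 60.5 and 52.6 CPM in controls and 55.1, 52.5, 94.97, 82.8 and 83.0 CPM after 6 Gy. Of the 5 irradiated tumors 3 lay above all controls and the other two within their range, and the gene rose (log2 change 0.43, SE 0.14, edgeR adjusted p = 0.042). On day 3 all 5 irradiated tumors (74.95 to 98.2 CPM) lay above all 5 controls (62.6 to 69.9 CPM), but the adjusted p was 0.086 (log2 change 0.41, SE 0.14). As a mean over days Pla2g4a rose after 6 Gy by 0.23 on the log2 scale (SE 0.08, edgeR adjusted p = 0.025). With INDO (-0.04) and with 6 Gy + INDO (-0.04) the mean difference from control was not called, and 6 Gy + INDO was lower than 6 Gy alone (-0.26, SE 0.07, adjusted p = 0.0019). When libraries were scaled by housekeeping genes, the last difference turned to 0.11 and that of 6 Gy + INDO from control to 0.32 (edgeR adjusted p = 1.6e-05), and the day 1 rise after 6 Gy was not called (0.17, 0.3). The difference from 6 Gy alone was also lost without day 3 (-0.18, edgeR adjusted p = 0.067). In controls, Pla2g4a also changed with time and was 0.70 higher on the log2 scale on day 7 than on day 1 (SE 0.17, edgeR adjusted p = 0.0037), and the difference between days was not called under housekeeping scaling (0.17). On day 3 it was 56.8 to 67.3 CPM with 6 Gy + INDO, below all 5 tumors given 6 Gy (-0.49, SE 0.15, edgeR adjusted p = 0.033, and -0.38, 0.63 without the high-receptor tumors), a call that was lost without any of 7 tumors, which were replicates 1, 2, 3 and 5 given 6 Gy and replicates 1, 2 and 4 given the combination (adjusted p 0.052 to 0.087). With the housekeeping scaling this difference turned to 0.071 (edgeR adjusted p = 0.67). The day 1 rise was lost without any of 10 of the 19 tumors of that day (adjusted p 0.051 to 0.10): any of the 4 controls, 6 Gy replicates 3, 4 and 5, and 6 Gy + INDO replicates 1, 2 and 3. The rise over days was not called without the high-receptor tumors (0.18, adjusted p = 0.099), without day 1 (0.16, 0.27) or without day 3 (0.18, 0.15). With the replicate number as a block, the rises on day 1 (0.39, edgeR adjusted p = 0.076) and over days (0.20, 0.073) and the day 3 difference from 6 Gy (-0.45, 0.072) were not called. The day 1 rise was also lost with all days in 1 fit and without the filter on low counts.

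Ptgs2, the gene of the inducible enzyme COX2, was lower 1 day after IR in tumors given INDO, at 0.497 times control with INDO alone and 0.432 times control with 6 Gy + INDO. Control tumors measured 80.35, 103, 112 and 114 CPM. Tumors given INDO measured 48.6, 51.3, 58.9, 51.4 and 39.1 CPM, and those given 6 Gy + INDO measured 40.5, 37.6, 41.8, 43.4 and 57.5 CPM. After 6 Gy alone the values were 83.2, 109, 87.6, 77.8 and 77.2 CPM. Every tumor given INDO, irradiated or not, was below every control and every tumor given 6 Gy alone, while 6 Gy alone overlapped the controls. The log2 change against control was -1.01 (SE 0.14, edgeR adjusted p = 0.0001) with INDO and -1.21 (SE 0.14, adjusted p = 1.1e-05) with 6 Gy + INDO, and 6 Gy + INDO was also lower than 6 Gy (-0.98, SE 0.135, adjusted p = 0.0031). These comparisons share their control tumors or their tumors given 6 Gy + INDO. Leaving out any 1 tumor kept the 3 calls. In a fit of all days together, with a spread shared by all 94 tumors, 6 Gy + INDO against control kept its call (edgeR adjusted p = 0.03), while INDO against control (-1.04, 0.1) and 6 Gy + INDO against 6 Gy (-0.98, 0.19) did not.

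**Figure D2:**
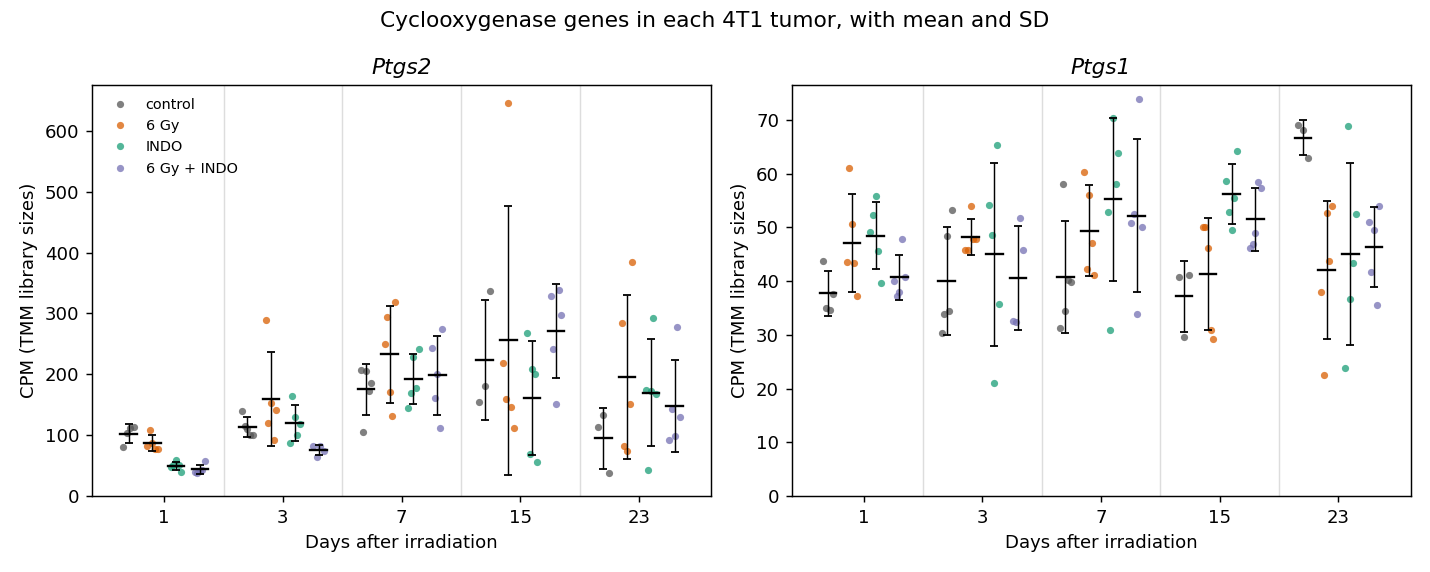
CPM of Ptgs2 (left) and Ptgs1 (right) by day after IR, each point 1 tumor, with the mean (line) and SD (bar) of each group. On day 1 the INDO (49.9 ± 7.12 CPM) and 6 Gy + INDO (44.2 ± 7.75 CPM) tumors lay below all controls for Ptgs2. The SD of Ptgs2 within groups was 7.12 to 15.5 CPM on day 1, 8.27 to 76.5 CPM on day 3 and 41.5 to 221 CPM from day 7 on.

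On day 3 Ptgs2 was lower with 6 Gy + INDO than with 6 Gy alone, and no group was called against control. INDO tumors measured 87.4, 165, 129.8, 100.0 and 118 CPM of Ptgs2, around the controls at 140.1, 114.5, 109.7, 101 and 101 CPM. The 4 tumors given 6 Gy + INDO measured 82.9, 65.2, 82.3 and 74.8 CPM and lay below all tumors of the other 3 groups, with 6 Gy alone at 290.0, 120.4, 153, 92.2 and 142 CPM. The difference from 6 Gy alone was called (log2 change -1.03, SE 0.25, edgeR adjusted p = 0.013), and those from control (-0.53, SE 0.25, 0.13) and from INDO alone (-0.62, SE 0.25, 0.15) were not. Of these 4 tumors 3 were high-receptor tumors. Without them the difference from 6 Gy rested on replicate 3 and was not called (-0.93, adjusted p = 0.48), and it was also lost without replicate 2 of 6 Gy + INDO (-0.96, adjusted p = 0.05) and under scaling by housekeeping genes (-0.46, adjusted p = 0.15).

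From day 7 on, the 4 groups overlapped for Ptgs2. In controls it measured 175 ± 41.9 CPM on day 7 (n = 5), 224 ± 98.4 on day 15 (n = 3) and 95.1 ± 50.3 on day 23 (n = 3), and the difference between days was not called in controls (edgeR adjusted p = 0.067). On day 23 single tumors reached from 38.0 CPM in a control to 385 CPM after 6 Gy, and the log2 changes against control were 0.68 to 1.055, without a call. The difference between 6 Gy + INDO and control differed between the 5 days (edgeR adjusted p = 0.045), but not once the high-receptor tumors were left out (adjusted p = 0.41). For INDO alone that test gave an adjusted p of 0.26 and for 6 Gy alone 0.52. As a mean over days Ptgs2 was not called against control in any group (0.38, -0.09 and -0.14 for 6 Gy, INDO and 6 Gy + INDO; 0.36, 0.11 and 0.24 under housekeeping scaling), and 6 Gy + INDO was lower than 6 Gy (-0.52, SE 0.17, adjusted p = 0.0095). That call was lost without day 1 (-0.41, adjusted p = 0.10), without day 3 (-0.37, 0.14) and under housekeeping scaling (-0.12, 0.59).

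Markers of most other cell types were also lower on day 1. Of all genes tested on that day, 15.6%, 14.7% and 24.1% were called with 6 Gy, INDO and 6 Gy + INDO. Of 8 macrophage markers, 5 fell with INDO and 5 with 6 Gy + INDO on day 1, and their summed level was 1430 to 2010 CPM in controls, 591 to 710 with INDO and 533 to 718 with 6 Gy + INDO. After 6 Gy alone, where Ptgs2 overlapped the controls, 5 of them fell as well (512 to 800 CPM). Of 7 neutrophil markers tested, 4 fell with 6 Gy, 4 with INDO and 5 with 6 Gy + INDO, and their sum was 189 to 347 CPM in controls and 98.9 to 349, 97 to 254 and 104 to 248 CPM in these groups. With 6 Gy, INDO and 6 Gy + INDO in turn, 8, 7 and 8 of 8 T cell markers, 7, 7 and 8 of 8 endothelial markers and 8, 9 and 10 of 10 mast cell markers fell, as did all 7 adipocyte markers in each group and 6, 6 and 3 of 8 fibroblast markers. None of 7 skeletal muscle markers was called on day 1, and 1 of 7 skin markers fell, with 6 Gy + INDO only. No macrophage or neutrophil marker was at 0 in all tumors. None of the 8 epithelial markers fell in the 2 groups given INDO on day 1, with sums of 2480 to 2810, 2300 to 2700 and 2490 to 2870 CPM. The part of these cells in the fall of Ptgs2 was not tested.

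Ptgs1, the gene of the constitutive enzyme COX1, was called in 1 comparison with control within a day. On day 1 it measured 43.7, 34.99, 34.65 and 37.7 CPM in controls and 49.2, 52.2, 55.8, 45.5 and 39.6 CPM with INDO, where 4 of the 5 tumors lay above all controls. It rose with INDO (log2 change 0.40, SE 0.13, edgeR adjusted p = 0.045), a call that was lost without any of 11 of the 19 tumors of the day (adjusted p 0.05 to 0.14), namely control replicates 2, 3 and 4, INDO replicates 1, 2 and 3, 6 Gy + INDO replicates 1, 2, 3 and 5, and 6 Gy replicate 4. It was also lost with RLE size factors (0.38, edgeR adjusted p = 0.055), under housekeeping scaling (0.47, 0.084), without the filter on low counts (0.33, 0.15) and with all days in 1 fit (0.36, 0.32). On day 15 all tumors given INDO (49.6 to 64.1 CPM) and all given 6 Gy + INDO (46.1 to 58.4 CPM) lay above the 3 controls (29.6, 40.9 and 41.2 CPM), without a call (adjusted p = 0.33 and 0.16). On day 23 the controls were the highest group instead, at 69.0, 68.05 and 63.0 CPM, and all tumors given 6 Gy (22.5 to 53.9 CPM) or 6 Gy + INDO (35.65 to 53.9 CPM) were lower, again without a call. In controls Ptgs1 was 0.82 higher on the log2 scale on day 23 than on day 1 (SE 0.25, edgeR adjusted p = 0.012). Over days no treatment was called for Ptgs1 (0.07, 0.20 and 0.09), and under housekeeping scaling it was higher with INDO (0.40, adjusted p = 0.0027) and with 6 Gy + INDO (0.42, 0.00059). Without day 23 it was also called with INDO (0.38, edgeR adjusted p = 0.0045). Platelets carry much Ptgs1: of 5 platelet markers tested on day 1, 3 fell with INDO, and the sum of the 8 on the list was 47.9 to 68.1 CPM in controls and 10.1 to 15.8 CPM with INDO, with the defining genes Gp9 and Gp6 at means under 0.1 CPM. Their part in the level of Ptgs1 was not tested.

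Among the prostaglandin E synthases, the inducible one was not called. Ptges, the microsomal enzyme that acts with COX2, measured 36.6 ± 10.2 CPM over all tumors and was called in none of the 15 comparisons with control within a day nor as a mean over days (0.09, -0.07 and -0.06 for 6 Gy, INDO and 6 Gy + INDO). At an unadjusted p under 0.05 it was also in none of these, and DESeq2 called it in none. Under housekeeping scaling it was 0.29 higher with 6 Gy + INDO over days (edgeR adjusted p = 0.043). Its level reached from 15.9 CPM in a tumor given 6 Gy + INDO on day 23 to 66.7 CPM in one given the same on day 15, so tumors of one treatment covered the range of all groups.

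Ptges2 and Ptges3, which are expressed broadly, were slightly lower in tumors given INDO. Over all tumors of a treatment, Ptges2 was 9.16 ± 1.91 CPM in controls (n = 20), 8.84 ± 1.496 after 6 Gy (n = 25), 7.63 ± 1.24 with INDO (n = 25), and 7.12 ± 1.34 for the combination of 6 Gy + INDO (n = 24). As a mean over days it fell by 0.25 on the log2 scale with INDO (SE 0.08, edgeR adjusted p = 0.01) and by 0.36 with 6 Gy + INDO (SE 0.08, adjusted p = 0.0001). Ptges3, also known as the co-chaperone p23, was 229.7 ± 35.2 CPM in controls, 224 ± 50.7 after 6 Gy, 194 ± 36.1 with INDO, and 187 ± 27.6 for the combination of 6 Gy + INDO. Over days it fell by 0.25 with INDO (SE 0.08, edgeR adjusted p = 0.0089) and by 0.30 with 6 Gy + INDO (SE 0.08, adjusted p = 0.00096), and single tumors of all groups overlapped. On day 7 all 5 tumors given 6 Gy + INDO (135.8 to 195 CPM) were below all 5 controls (211 to 322 CPM) for Ptges3, and those for Ptges2 (6.42 to 8.40 against 8.70 to 13.7 CPM) as well. Ptges2 fell on day 3 with 6 Gy + INDO too (-0.49, SE 0.17, edgeR adjusted p = 0.049), a call lost without any of 12 of the 19 tumors of that day (control replicates 2 to 5, all 5 given 6 Gy, INDO replicate 5 and 6 Gy + INDO replicates 1 and 3, adjusted p 0.054 to 0.17) and without the high-receptor tumors (-0.61, 0.36). On that day it was also lower than with 6 Gy alone (-0.60, SE 0.17, edgeR adjusted p = 0.021), which was lost without 6 Gy replicate 5, 6 Gy + INDO replicate 1 or the high-receptor tumors (-0.73, 0.37).

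These small falls depend on how libraries are scaled. The median log2 change of all genes for 6 Gy + INDO against control over days was 0.19 with TMM and 0.52 when libraries were scaled by 14 housekeeping genes. Under that scaling Ptges2 (0.00) and Ptges3 (0.06) no longer fell with 6 Gy + INDO over days, nor with INDO (-0.04 and -0.06, adjusted p = 0.71 and 0.46), and on day 7 they were 0.13 and 0.08. With 6 Gy + INDO over days, both were below the median of all genes under either scaling. Without the high-receptor tumors the falls over days were called (-0.39 and -0.31 for 6 Gy + INDO, edgeR adjusted p = 0.0013 and 0.012), and those within day 7 were not (adjusted p = 0.16 and 0.10). Under housekeeping scaling the day 3 differences of Ptges2 with 6 Gy + INDO were -0.04 from control and -0.04 from 6 Gy (edgeR adjusted p = 0.87 and 0.85). That from control was also lost with the replicate block (-0.44, 0.061). Against 6 Gy over days, the lower Ptges3 with 6 Gy + INDO (-0.26, SE 0.07, edgeR adjusted p = 0.0028) was lost without the high-receptor tumors (-0.23, 0.064), without day 3 (-0.19, 0.062) and without day 7 (-0.19, 0.065), and under housekeeping scaling it was 0.11 (0.074). The falls with INDO over days were lost without day 3 (adjusted p = 0.051 and 0.096) or day 7 (0.12 and 0.081). Within day 7, the fall of Ptges3 was lost without control replicate 4 or 6 Gy + INDO replicate 5 (adjusted p 0.052 to 0.058), and that of Ptges2 without any of 9 of the 20 tumors, namely control replicates 1 and 4, INDO replicates 1 to 4 and 6 Gy + INDO replicates 1, 3 and 4 (adjusted p 0.058 to 0.13).

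Ptgis, which turns prostaglandin H2 into prostacyclin, a product of vessel walls and fibroblasts, fell with INDO and with 6 Gy + INDO on day 3 and with all 3 treatments on day 7. On day 3 controls measured 3.53, 2.01, 4.21, 4.66 and 2.55 CPM. Tumors given INDO measured 1.29, 0.125, 0.193, 0.650 and 0.608 CPM, and those given 6 Gy + INDO measured 0.370, 0.706, 1.78 and 0.927 CPM. Both groups lay below all controls, and the gene fell in both (INDO log2 change -2.52, SE 0.575, edgeR adjusted p = 0.015, combination -1.78, SE 0.60, 0.046). Tumors given 6 Gy alone (0.457 to 2.56 CPM) overlapped the controls and were not called by edgeR, while DESeq2 called them. On day 1 the means were 2.40 CPM in controls and 0.994, 0.994 and 1.49 CPM with 6 Gy, INDO and 6 Gy + INDO. Neither edgeR nor DESeq2 called these, but the unadjusted edgeR p was under 0.05 with 6 Gy and with INDO. On day 7 controls measured 1.25, 2.36, 3.67, 1.72 and 1.29 CPM, and Ptgis fell with 6 Gy (0.294 to 1.33 CPM, -1.32, SE 0.41, adjusted p = 0.034), with INDO (0.374 to 1.18 CPM, -1.18, SE 0.42, 0.046) and with 6 Gy + INDO (0.259 to 0.724 CPM, -2.01, SE 0.44, 0.0015). The 2 groups given INDO did not overlap the controls on day 7, and the group given 6 Gy alone did.

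**Figure D3:**
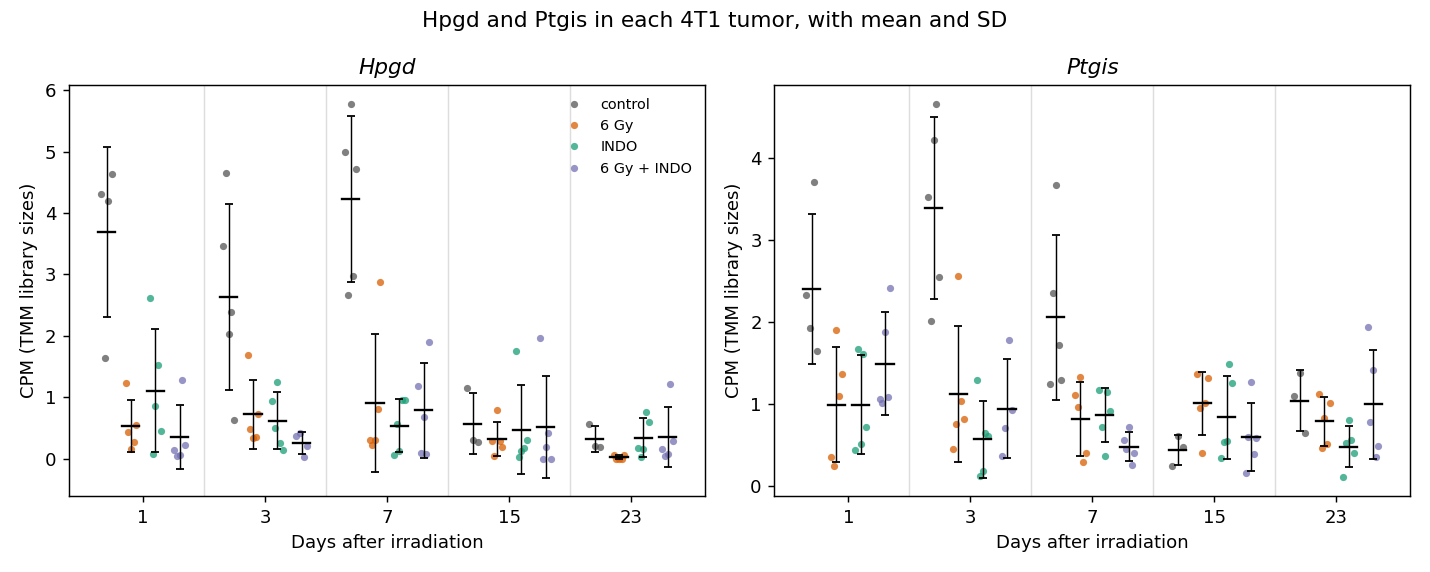
CPM of Hpgd (left) and Ptgis (right) by day after IR, each point 1 tumor, with the mean (line) and SD (bar) of each group. Control levels of Hpgd were 3.70, 2.63 and 4.23 CPM on days 1, 3 and 7 and 0.571 and 0.317 CPM on days 15 and 23, when treated groups overlapped them, apart from 6 Gy on day 23, where all 5 tumors lay below the controls.

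In controls Ptgis fell by day 15, when they measured 0.248, 0.614 and 0.475 CPM (log2 change against day 1 -2.41, SE 0.66, edgeR adjusted p = 0.0088). On days 15 and 23 no treated group was called, and the treated means of day 15 (1.01, 0.840 and 0.604 CPM) were above that of the controls (0.446 CPM). The difference between 6 Gy + INDO and control varied between days (edgeR adjusted p = 0.032), which was not so without the high-receptor tumors (0.32). As a mean over days Ptgis fell by 0.68 for 6 Gy, by 1.05 for INDO and by 0.84 for the combination (SE 0.24, 0.24 and 0.25, edgeR adjusted p = 0.035, 0.00049 and 0.003). These were lost without day 3 (-0.45, -0.66 and -0.58, adjusted p = 0.26, 0.052 and 0.067), those with 6 Gy and 6 Gy + INDO also without day 7 (-0.51 in both, 0.27 and 0.16), and that with 6 Gy also without day 1 (-0.55, 0.19). The fall with 6 Gy + INDO was not called without the high-receptor tumors (-0.71, 0.076) or under housekeeping scaling (-0.52, 0.058). That scaling also ended the calls on day 3 with 6 Gy + INDO (-1.44, edgeR adjusted p = 0.065) and on day 7 with 6 Gy (-1.20, 0.065) and INDO (-0.82, 0.15). The falls with INDO on day 3 and with 6 Gy + INDO on day 7 held without any 1 tumor. That with 6 Gy + INDO on day 3 was lost without any of 12 of 19 tumors (control replicates 1, 3, 4 and 5, 6 Gy replicates 2, 4 and 5, INDO replicates 4 and 5, and 6 Gy + INDO replicates 1, 2 and 4, adjusted p 0.052 to 0.13) and without the high-receptor tumors (-0.90, 0.74), and those with 6 Gy and INDO on day 7 depended on single tumors too. The fall with 6 Gy was lost without control replicate 2 or 3 or 6 Gy replicate 2, 4 or 5 (adjusted p 0.057 to 0.12). The fall with INDO was lost without control replicate 2, 3 or 4, any tumor given INDO, 6 Gy replicate 2 or 6 Gy + INDO replicate 1 (adjusted p 0.05 to 0.14), or without the high-receptor tumors (-1.18, 0.055), and with the replicate block (-1.02, 0.092). Both of these day 7 falls were also lost with all days in 1 fit and without the filter on low counts. Without that filter the fall with 6 Gy over days was not called either.

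Fibroblast and endothelial markers were lower alongside Ptgis. On day 3 all 8 fibroblast markers fell with INDO, 7 with 6 Gy + INDO and 5 with 6 Gy, where edgeR did not call Ptgis. Their summed level was 6790 to 11900 CPM in controls, 1870 to 3330 with INDO, 2400 to 3830 with 6 Gy + INDO and 2440 to 4800 with 6 Gy. On day 1, when Ptgis was not called, 6, 6 and 3 of 8 fibroblast markers fell with 6 Gy, INDO and 6 Gy + INDO. Of 8 endothelial markers, 7 fell in each of the 3 treated groups on day 3, from a sum of 256 to 367 CPM in controls to 94.6 to 167 CPM with INDO and 99.8 to 130 CPM with 6 Gy + INDO. No marker of either list was at 0 in all tumors, and their part in the fall of Ptgis was not tested.

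Of the prostaglandin D synthases, Hpgds was lower after 6 Gy and Ptgds was nearly absent. Hpgds, the hematopoietic form found in mast cells and macrophages, was 16.9 ± 3.73 CPM in controls (n = 20), 13.4 ± 3.67 after 6 Gy (n = 25), 18.2 ± 4.25 with INDO (n = 25), and 15.5 ± 3.05 for the combination of 6 Gy + INDO (n = 24). It fell as a mean over days after 6 Gy (log2 change -0.35, SE 0.11, edgeR adjusted p = 0.013) and was not called with INDO (0.11, 0.46) or 6 Gy + INDO (-0.13, 0.34). On day 23 the 3 controls measured 15.5 to 16.7 CPM and all 5 tumors given 6 Gy were below them, from 3.08 to 15.4 CPM, without a call within that day (adjusted p = 0.33). The fall over days was lost without day 7 (-0.35, 0.064) or day 23 (-0.27, 0.075). Between 6 Gy + INDO and 6 Gy, Hpgds was not called over days by edgeR, with an unadjusted p under 0.05. It was called higher in the combination with DESeq2, with RLE size factors, under housekeeping scaling and without day 3 (0.27, edgeR adjusted p = 0.047). Over days 5 of 10 mast cell markers and all 8 macrophage markers fell after 6 Gy, 3 and 3 of them fell with INDO, and 9 and 5 fell with 6 Gy + INDO, where Hpgds was not called. Their part in the level of Hpgds was not tested.

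Ptgds, the lipocalin form, was at the edge of detection. On day 7 it had 4, 5, 3, 5 and 4 counts in controls, 17, 20, 4, 5 and 25 counts after 6 Gy, and 23, 8, 3, 10 and 12 counts with 6 Gy + INDO, in libraries of unequal depth. In CPM that is 0.0355 to 0.0794, 0.0606 to 0.3475 and 0.136 to 0.360, so 6 Gy + INDO lay above all controls and 6 Gy overlapped them. It rose with 6 Gy (log2 change 1.76, SE 0.455, edgeR adjusted p = 0.012) and also in the combination group (2.38, SE 0.47, 0.00079) on day 7, and over days with 6 Gy + INDO (1.20, SE 0.32, 0.0011). On day 7 the gene passed the filter on low counts only through tumors given 6 Gy, alone or with INDO, where it was high. Controls and INDO tumors (at most 0.124 CPM) were too low to pass it. The day 7 calls thus concern a gene selected through its high groups. Both were also made without the filter. That with 6 Gy was lost with all days in 1 fit (edgeR adjusted p = 0.058). On days 3, 15 and 23 too few counts were present for a test within the day.

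Hpgd, which oxidizes PGE2 and other prostaglandins and so ends their action, had the largest log2 changes against control among the 10 genes. On day 1 it measured 4.31, 1.64, 4.19 and 4.64 CPM in controls. After 6 Gy it measured 1.22, 0.437, 0.150, 0.270 and 0.554 CPM, and with 6 Gy + INDO 0.135, 0.0454, 0.0537, 1.27 and 0.218 CPM, from 3 to 69 counts. Both groups lay below all controls, and Hpgd fell in both (6 Gy log2 change -2.81, SE 0.87, edgeR adjusted p = 0.034, combination -3.42, SE 0.895, 0.0096). Tumors given INDO alone measured 2.62, 0.0751, 0.856, 1.52 and 0.448 CPM on day 1, overlapped the controls and were not called.

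On day 3 Hpgd was 3.46, 4.65, 2.025, 2.39 and 0.627 CPM in controls and 0.370, 0.415, 0.0310 and 0.197 CPM with 6 Gy + INDO, from 2 to 10 counts. All 4 were below all controls (log2 change -3.42, SE 0.80, edgeR adjusted p = 0.008), while 6 Gy (0.341 to 1.69 CPM) and INDO (0.142 to 1.24 CPM) overlapped the lowest control and were not called by edgeR, while DESeq2 called both. On day 7 controls measured 5.00, 2.66, 5.78, 2.98 and 4.71 CPM, and INDO tumors measured 0.0620, 0.570, 0.125, 0.960 and 0.947 CPM, all lower (-2.90, SE 0.855, adjusted p = 0.021). Tumors given 6 Gy + INDO were all lower as well, at 1.19, 0.0912, 0.679, 0.0777 and 1.90 CPM (-2.31, SE 0.835, adjusted p = 0.03). With 6 Gy alone, 4 tumors measured 0.223 to 0.807 CPM and 1 measured 2.88 CPM, within the range of the controls, and the group was not called by edgeR, while DESeq2 called it.

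In controls Hpgd itself dropped with time. On day 15 it was 1.15, 0.297 and 0.270 CPM and on day 23 it was 0.557, 0.201 and 0.193 CPM, and it fell between day 1 and day 23 (log2 change -3.54, SE 1.20, edgeR adjusted p = 0.025). On day 23, 3 of the 5 tumors given 6 Gy had 0 counts and the others 4 and 5, all below the controls with 14 to 40 counts, and this was not called (-3.24, SE 1.12, adjusted p = 0.30). As a mean over days Hpgd fell by 2.19 for 6 Gy, by 1.39 for INDO and by 1.87 for the combination on the log2 scale (SE 0.45, 0.43 and 0.45, edgeR adjusted p = 0.00014, 0.0081 and 0.00036). Differences between treatments were not called: 6 Gy + INDO against 6 Gy was 0.32 (SE 0.44, adjusted p = 0.61; -0.50 without the high-receptor tumors and -0.45 without day 23) and against INDO -0.47 (SE 0.43, 0.55). The interaction of 6 Gy and INDO, by which the combined fall was smaller than the sum of the single falls, was 1.71 (SE 0.62, adjusted p = 0.073). It passed the threshold in DESeq2 (1.83, 0.037), under housekeeping scaling (2.00, 0.033) and without day 15 (1.87, 0.038), and it was 0.63 (0.77) without the high-receptor tumors.

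The falls of Hpgd with 6 Gy + INDO on days 1 and 3 held without any 1 tumor (edgeR adjusted p at most 0.029). On day 1 the log2 change went from -3.42 to -5.04 without 6 Gy + INDO replicate 4, the tumor with 69 counts, and on day 7 from -2.31 to -2.94 without 6 Gy + INDO replicate 5. The fall on day 3 was not called without the 3 high-receptor tumors, which leaves 1 tumor (-6.29, adjusted p = 0.18), and that on day 7 was not called without such tumors either (-2.63, 0.11) nor under housekeeping scaling (-1.76, 0.083). The fall with 6 Gy on day 1 was lost without any of 7 of the 19 tumors, namely control replicates 1, 3 and 4 and 6 Gy replicates 2 to 5 (adjusted p 0.052 to 0.086), and with all days in 1 fit. The fall with INDO on day 7 was lost without INDO replicate 3 (-2.65, 0.051), and that with 6 Gy + INDO on day 7 without control replicate 3 or 6 Gy + INDO replicate 3 or 4 (adjusted p at most 0.06). With INDO over days it was lost without day 3 (-1.20, 0.068) or day 7 (-0.97, 0.16). Beside it, fibroblast markers fell on each of days 1, 3 and 7, with 6, 5 and 7 of 8 called lower for 6 Gy. The counts were 6, 8 and 7 for INDO and 3, 7 and 8 for the combination. Of 8 endothelial markers, 7, 7 and 8 fell on day 1 with 6 Gy, INDO and 6 Gy + INDO. On day 3, 7 of them fell in each group, and on day 7 all 8. All 7 adipocyte markers fell in each group on day 1, 1, 4 and 4 of 6 tested on day 3, and 7, 4 and 4 of 7 on day 7. Of 10 mast cell markers, 8, 9 and 10 fell on day 1 in these groups, from a sum of 45.7 to 91.4 CPM in controls to 11.5 to 44.4, 10.0 to 29.9 and 7.82 to 15.7 CPM. Only 1 in each group fell on day 3, and 2, 3 and 2 on day 7, when Hpgd was lower too. No macrophage or T cell marker fell with INDO on day 7, when Hpgd did. The part of these cells in the fall of Hpgd was not tested.

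Counted over all 10 genes, calls lay on days 1 to 7 and were mostly falls. On day 1, 2 of 10 were called with 6 Gy, where 15.6% of all genes tested were called, 2 of 10 with INDO (14.7% of all) and 2 of 10 with 6 Gy + INDO (24.1%). On day 3 none of 9 was called with 6 Gy (7.72% of all), although 4 had an unadjusted p under 0.05 and DESeq2 called 3, while 1 of 9 was called with INDO (6.33%) and 3 of 9 with 6 Gy + INDO (19.5%). On day 7 the counts were 2 of 10 (16%), 2 of 10 (24.3%) and 5 of 10 (46%). The shares of called genes among the 10 were near those of all genes in most comparisons, so the counts by themselves do not set the 10 genes apart. The median log2 change of the 10 genes on day 7 was 0.03, -0.17 and -0.15, against 0.02, 0.02 and 0.03 for all genes.

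On days 15 and 23 none of the 9 genes tested was called against control by edgeR, and DESeq2 called none of them. At an unadjusted p under 0.05 there was 1 on day 15 in each treated group (Hpgds with 6 Gy, Ptgs1 with INDO and with 6 Gy + INDO). On day 23 there were 3 with 6 Gy (Ptgs1, Hpgds and Hpgd) and 0 in both groups given INDO. Of all genes, edgeR called 1.33% with 6 Gy + INDO on day 15, 0.00473% with 6 Gy + INDO on day 23, and 0% in the other 4 comparisons.

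**Figure D4:**
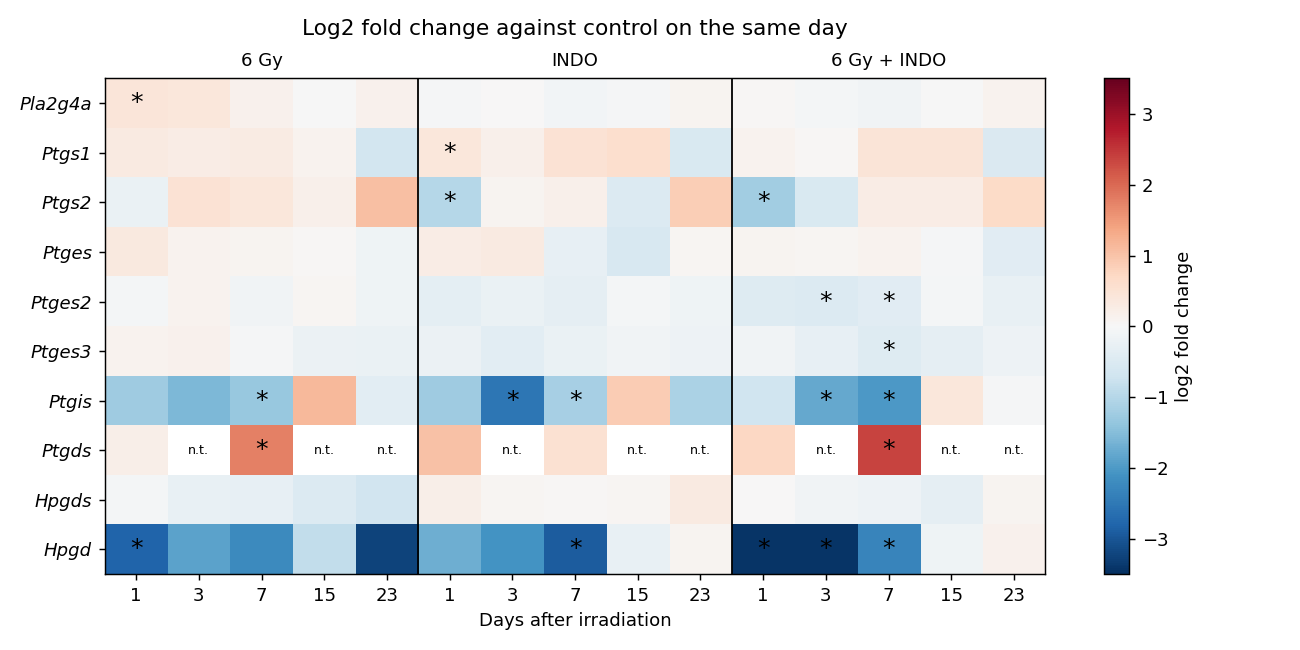
Log2 fold change of the 10 genes (rows) against control untreated tumors of the same day (columns, by treatment and day after IR), with red higher and blue lower, an asterisk for an edgeR adjusted p under 0.05 and n.t. for a gene not tested. Calls lay on days 1, 3 and 7, with 5 each for Hpgd and Ptgis among 15 comparisons, and none for Ptges or Hpgds.

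As a mean over days 4 of the 10 genes were called with 6 Gy (19.8% of all genes tested), 1 higher (Pla2g4a) and 3 lower (Ptgis, Hpgds and Hpgd). With INDO 4 were called, all lower (Ptges2, Ptges3, Ptgis and Hpgd), where 34.2% of all genes were called and 17.4% were called lower, and with 6 Gy + INDO 5, of which Ptgds was higher and the same 4 as with INDO were lower (52.8% of all genes). Against 6 Gy alone, 6 Gy + INDO was lower for 4 genes (Pla2g4a, Ptgs2, Ptges2 and Ptges3), where 45.7% of all genes were called and 19.8% were called lower. DESeq2 called these 4 and also Hpgds, which was higher. Against INDO alone none of the 10 genes was called by edgeR (10.8% of all genes), with 2 at an unadjusted p under 0.05 and none in DESeq2. The 2 treatments were called to interact for none of them (7.58% of all genes), with 3 at an unadjusted p under 0.05 and 1, Hpgd, in DESeq2. In controls 4 of the 10 differed between days (Pla2g4a, Ptgs1, Ptgis and Hpgd, 30.2% of all genes), and against day 1 the calls were 1 on day 7 (10.2% of all), 1 on day 15 (13.6%) and 2 on day 23 (21.6%). The difference from control varied between days for 2 of the 10 with 6 Gy + INDO (33.6% of all genes). For 6 Gy (3.82%) and INDO (2.66%) edgeR called none, with 2 and 3 at an unadjusted p under 0.05, a test for which DESeq2 was not run. Within days, 6 Gy + INDO against 6 Gy gave 1 call on day 1 (Ptgs2, 4.67% of all genes) and 3 on day 3 (Pla2g4a, Ptgs2 and Ptges2, 19.7%).

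Ratios within a tumor do not depend on the scaling of its library. On day 1 the ratio of Ptgs2 to Ptgs1 counts was 1.84 to 3.23 in controls, 1.73 to 2.08 after 6 Gy, 0.983 to 1.13 with INDO, and 0.908 to 1.41 for the combination of 6 Gy + INDO. Both groups given INDO lay below all controls and all tumors given 6 Gy alone. From day 3 on, the ratio overlapped between every treated group and control, and it reached 14 in 1 tumor given 6 Gy on day 15. The ratio of Ptgs2 to Hpgd, the enzyme that makes the precursor against the one that removes the product, was 35.6 to 58.1 in the 5 controls of day 7. It was 110 to 1290 after 6 Gy, 183 to 1860 with INDO, and 143 to 1510 for the combination of 6 Gy + INDO, above all controls in each group. On days 1 and 3 it was above all controls with 6 Gy only, at 67.4 to 559 against 18.6 to 62.8 and at 171 to 440 against 24.6 to 159. By day 15 the controls had reached 134 to 1220. On day 23, 3 of the 5 tumors given 6 Gy had no Hpgd count, so no ratio is given for them.

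**Figure D5:**
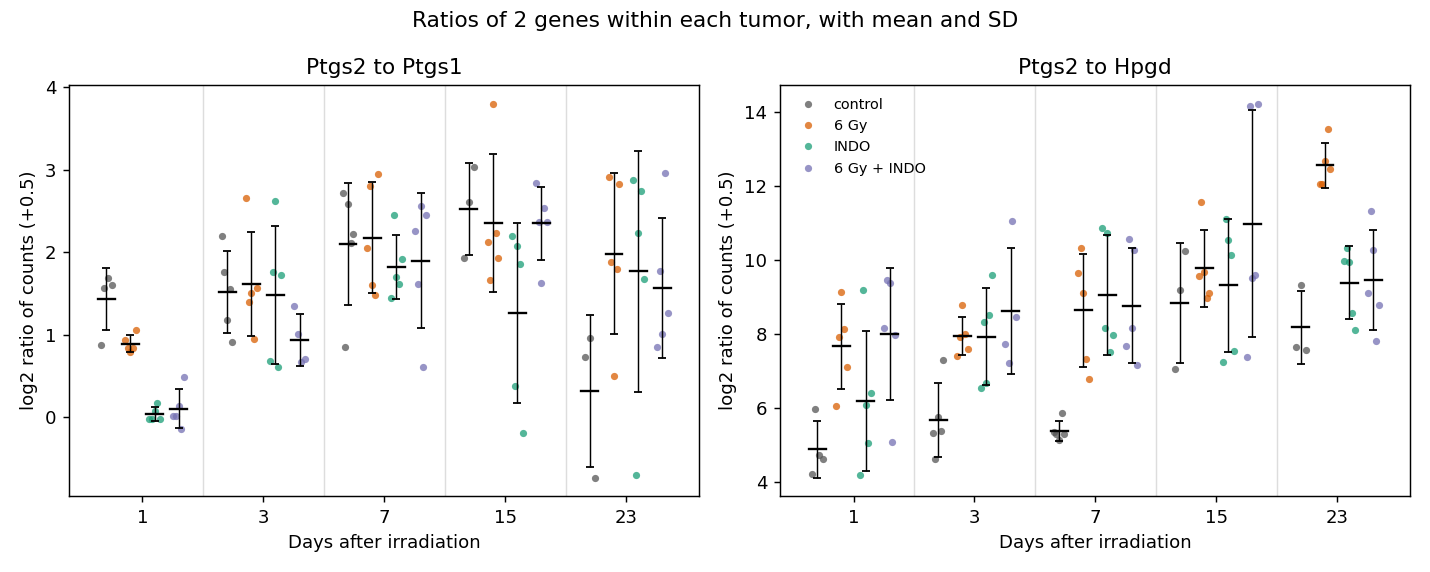
Log2 ratio of the counts of Ptgs2 to Ptgs1 (left) and of Ptgs2 to Hpgd (right), with 0.5 added to each count, by day after IR, each point 1 tumor, with mean (line) and SD (bar). On day 1 the Ptgs2 to Ptgs1 ratio of both INDO groups lay below all controls, and on day 7 the Ptgs2 to Hpgd ratio of every treated group lay above all controls. Tumors with no Hpgd count, 2 given 6 Gy + INDO on day 15 and 3 given 6 Gy on day 23, are placed by the added 0.5.

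The other enzymes around these genes were mostly lower where they were called. Of 15 other phospholipases A2 tested as a mean over days, 1 rose and 2 fell with 6 Gy, 2 rose and 2 fell with INDO and 2 rose and 4 fell with 6 Gy + INDO. Of all genes tested, 19.8%, 34.2% and 52.8% were called in these 3 comparisons, so these counts are near or below the share of all genes. The lysosomal Pla2g15 (49.9 ± 16.0 CPM in controls) fell with 6 Gy (-0.56, SE 0.08, edgeR adjusted p = 2.4e-07), INDO (-0.39, SE 0.08, 0.00019) and 6 Gy + INDO (-0.68, SE 0.08, 9.8e-10). Pla2g7, which hydrolyzes platelet-activating factor, also fell with 6 Gy (-0.33, SE 0.07, 0.00024), INDO (-0.54, SE 0.07, 2.1e-08) and 6 Gy + INDO (-0.65, SE 0.07, 3.3e-11). Pla2g4b (0.735, SE 0.18, 0.00081) and Pla2g4c (0.64, SE 0.14, 0.00023), members of the same cytosolic family as Pla2g4a, rose with INDO. Both rose with 6 Gy + INDO as well (0.77, SE 0.18, edgeR adjusted p = 0.00026, and 0.51, SE 0.14, 0.0018). Of 13 other prostanoid enzymes tested, none rose against control, and 5 fell with 6 Gy (19.8% of all genes called), 9 with INDO (34.2%) and 9 with 6 Gy + INDO (52.8%). These shares count genes called in either direction, and with INDO 17.4% of all genes were called lower. Among them the carbonyl reductase Cbr3 fell with 6 Gy (-1.23, SE 0.22, 1e-05) and Ptgr1, which acts after Hpgd in prostaglandin breakdown, with INDO (-0.52, SE 0.09, 2.6e-06). Both fell with 6 Gy + INDO as well (-1.07, SE 0.22, edgeR adjusted p = 5.1e-05, and -0.37, SE 0.09, 0.00023). Tbxas1, the thromboxane synthase, was higher with 6 Gy + INDO than with 6 Gy (0.53, SE 0.13, 0.00043).

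Receptors and transporters were also mostly lower than in controls where called. Of 12 tested as a mean over days, 6 fell and none rose with 6 Gy, 4 fell and 1 rose with INDO, and 4 fell and 2 rose with 6 Gy + INDO, where 19.8%, 34.2% and 52.8% of all genes were called. With 6 Gy + INDO the count is near the share of all genes. The prostacyclin receptor Ptgir was 3.25 ± 1.75 CPM in controls (n = 20) and 1.255 ± 0.742 after 6 Gy (n = 25, log2 change -1.09, SE 0.20, edgeR adjusted p = 2e-05). Ptgir also fell with INDO (-0.76, SE 0.20, 0.0019) and with 6 Gy + INDO (-0.96, SE 0.20, 6.6e-05). The PGF receptor Ptgfr was 3.31 ± 2.69 CPM in controls and 0.509 ± 0.325 with INDO (n = 25, -1.89, SE 0.31, 2.3e-06). Ptgfr also fell with 6 Gy (-1.67, SE 0.305, 1.9e-05) and with 6 Gy + INDO (-1.52, SE 0.31, 3.8e-05). The PGE2 receptor Ptger4 fell with 6 Gy (-0.70, SE 0.10, 2e-07) and with 6 Gy + INDO (-0.44, SE 0.10, 0.00034). Slco2a1, which carries prostaglandins into cells, rose with 6 Gy + INDO (0.29, SE 0.09, 0.0059). Against 6 Gy alone, 5 of the 12 were higher with 6 Gy + INDO and none was lower (45.7% of all genes called).

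Of 18 inducers and regulators of Ptgs2 tested, 3 fell and none rose with 6 Gy, 5 fell and 1 rose with INDO, and 11 fell and none rose with 6 Gy + INDO. These counts are for means over days, where 19.8%, 34.2% and 52.8% of all genes were called, and those with 6 Gy and INDO are not above these shares. On day 1, when Ptgs2 was lower with INDO and 6 Gy + INDO, 7 of the 18 fell with 6 Gy, 7 with INDO and 12 with 6 Gy + INDO. None rose on day 1, and 15.6%, 14.7% and 24.1% of all genes were called. Their part in the fall of Ptgs2 was not tested. The interleukin-1 receptor Il1r1 was 75.1 ± 13.7 CPM in controls, 49.99 ± 7.43 after 6 Gy, 41.0 ± 10.3 with INDO, and 40.7 ± 8.06 for the combination of 6 Gy + INDO, and fell with each (edgeR adjusted p = 7.7e-08, 4e-13 and 7.6e-14). Il6 fell with INDO (-0.92, SE 0.22, adjusted p = 0.00075) and Nfkb1 rose with it (0.29, SE 0.08, 0.0039). With 6 Gy + INDO the immediate early genes Fos (-0.97, SE 0.21, 0.00012) and Atf3 (-0.66, SE 0.15, 0.00012) fell. As with all comparisons with control, these share the same 20 control tumors.

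Across the 94 tumors, after the mean of each treatment and day was taken out, the genes with the most similar pattern differed between the 10. For Ptgs2 these were Gpr137b (r = 0.858) and the neutrophil-attracting chemokine Cxcl5 (r = 0.845), and for Hpgd Chl1 (r = 0.844), Rnf144b (r = 0.837) and Slco3a1 (r = 0.816). Ptges varied most like Stat3 (r = 0.752) and Adam8 (r = 0.747), and Ptgis like Fkbp14 (r = 0.729) and Fibin (r = 0.695). Ptges3 varied most like Eif2s2 (r = 0.925) and Eif4e (r = 0.923), Pla2g4a like Katnbl1 (r = 0.887), Hpgds like Gpr160 (r = 0.774), Ptges2 like Polr2c (r = 0.766) and Ptgs1 like the transferrin gene Trf (r = 0.663), and for the rare Ptgds the highest r was 0.429. Among the 10 genes the closest pair was Pla2g4a and Ptges3 (r = 0.719), and Ptgs2 varied with Pla2g4a (r = 0.556), Ptges (r = 0.445) and Hpgd (r = 0.428) but little with Ptgs1 (r = -0.077). These are descriptions over tumors that share library depth and cell composition, among 13380 genes compared.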

How the data were processed

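Total RNA of 94 tumors was sequenced. The authors deposited expected counts per gene, which need not be whole, and these were rounded to whole numbers. The tools named in the submitters' processing notes are cutadapt, STAR and Partek (11.0.24.0328), with mm10 as the build and no role given, and the counter, the annotation and the use of strand are not given in the sources used here. Columns were matched to tumors by name, and groups came from the labels. Each day was fitted by edgeR 4.0.16 (R 4.3.3) with the quasi-likelihood test, TMM library sizes and its filter on low counts, and a fit of all days gave means over days, the interaction and differences between days. P-values were adjusted over all genes tested by Benjamini-Hochberg (threshold 0.05). The labels do not number animals, so p-values measure the spread between tumors. Log2 CPM used a prior count of 2 and ratios added 0.5 to each count. High-receptor tumors had over 300 CPM on receptor genes. All 10 genes are named, with at most 4 called genes per pathway list and comparison, by smallest p, and the genes of highest Pearson r among those with a mean log2 CPM of at least 1. The genes and lists were chosen with earlier results of these data known. Alternatives were DESeq2 1.42.0, RLE size factors, scaling by 14 housekeeping genes, no filter, 1 fit of all days, an unadjusted p under 0.05 with a 2-fold change, a replicate block, and leaving out each tumor, each day or the high-receptor tumors. The fits were tested on simulated data. Depth was 21.0 to 109.3 M counts per tumor, and the precision of Hpgd, Ptgis and Ptgds is limited by counts.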

Additional observations from a re-analysis of the deposited data

Results flagged for a closer look

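Within groups of 4 or 5 tumors of 1 treatment and day, 21 of 180 gene and group pairs held a tumor far from the rest of its group, where chance gives about 1 in 20, that is 9. For Hpgd these were 6 Gy + INDO replicate 4 on day 1 (1.274 CPM, next 0.218), control replicate 2 on day 1, which was low (1.642, next 4.19), 6 Gy replicate 1 on day 3 (1.691), 6 Gy replicate 5 on day 7 (2.877, next 0.807), INDO replicate 1 and 6 Gy + INDO replicate 1 on day 15 (1.75 and 1.956 CPM) and 6 Gy + INDO replicate 4 on day 23 (1.21). For Ptgs2 they were 6 Gy replicate 3 on day 15 (644.7 CPM, next 219) and 6 Gy + INDO replicate 4 on day 23 (277.3, next 142.5), and the latter tumor was also high for Pla2g4a (77.63 CPM). INDO replicate 1 and 6 Gy + INDO replicate 1 on day 15, high for Hpgd, were high for Ptges as well (50.35 and 66.68 CPM).

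The others were Pla2g4a in control replicate 4 on day 7 (121 CPM), Ptgs1 in 6 Gy replicate 3 on day 3 (53.97 CPM), where Ptgis was also high (2.558 CPM), Ptges2 in 6 Gy replicate 3 on day 1 (11.62 CPM) and INDO replicate 5 on day 7 (10.95 CPM), and Ptges3 in 6 Gy replicate 5 on day 3 (293.5 CPM) and INDO replicate 1 on day 23 (266.4 CPM). Ptges3 was low in 6 Gy + INDO replicate 5 on day 1 (164 CPM), and Ptgds in 6 Gy + INDO replicate 4 on day 3 (0.1405 CPM, 5 counts).

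The difference between 6 Gy + INDO and control differed between days for Ptgis (edgeR adjusted p = 0.032) and Ptgs2 (edgeR adjusted p = 0.045), and neither passed without the high-receptor tumors (0.32 and 0.41).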

How the results depend on the processing

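Over the 5 days 4, 5 and 10 calls against control were made for 6 Gy, INDO and 6 Gy + INDO. With all days in 1 fit there were 1 for 6 Gy and 2 for INDO, without the filter on low counts 2 and 3, with DESeq2 8 for 6 Gy, with an unadjusted p under 0.05 and a 2-fold change 8 for 6 Gy, and without the high-receptor tumors 4 for 6 Gy + INDO. Leaving out 1 tumor gave 2 to 5, 3 to 6 and 8 to 11. As means over days, the 4 calls for 6 Gy were 2 without day 1, 3 or 7 and 1 by unadjusted p and fold. The 4 for INDO were 0 without day 3, 1 without day 7 and 2 by p and fold. The 5 for 6 Gy + INDO were 2 by p and fold, and of the 4 against 6 Gy, all lower, 1 (Ptges2) remained without day 3, where Hpgds was newly called higher (2 calls in all), and 0 by p and fold. Against INDO, 0 became 2 under housekeeping scaling and 1 without day 15. For the interaction, 0 became 1 with DESeq2, 2 under housekeeping scaling, 4 without day 15 and 1 by p and fold. Between days, the 2 for 6 Gy + INDO were 4 under housekeeping scaling and 0 without the high-receptor tumors. Housekeeping scaling reversed 10 of 89 results: for 6 Gy + INDO against control Ptges2 (0.132) and Ptges3 (0.084) on day 7 and Pla2g4a (0.318), Ptges (0.288), Ptges2 (0.002) and Ptges3 (0.058) over days, and against 6 Gy Pla2g4a on day 3 (0.071) and Pla2g4a (0.107), Ptges2 (0.031) and Ptges3 (0.109) over days. It ended the call of 14 others, given beside each gene, and brought 9 others past the threshold. The cause was not tested. RLE size factors left 85 of 89 results on the same side of the threshold, and DESeq2 80 of 83.

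Replicate numbers showed no steady pairing of the tumors: over 25 sets of tumors with the same number the mean correlation of deviations was -0.166 to 0.304, and all pairs were above 0.1 in 3 sets, on days 15 and 23. With 3 or 4 tumors per set, this check cannot exclude a pairing. With the replicate block 5 of 83 results lost their call (Pla2g4a with 6 Gy on day 1 and over days and against 6 Gy on day 3, Ptges2 with 6 Gy + INDO on day 3 and Ptgis with INDO on day 7) and 1, the interaction for Hpgd, gained it (1.865, edgeR adjusted p = 0.031), so that count was 1.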
